A study of Mus musculus with 4 samples.

Results

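L6-Syt6 neurons are the deep excitatory neurons of the ventromedial prefrontal cortex that express Syt6, and they were compared here according to how much viral barcode RNA each cell carried. The members were chosen by the study's own cell annotation and by the raw UMI count of the feature named barcode in the transcriptome matrix: cells with 5 or more barcode UMIs were called barcode-high and cells with 0 barcode-zero. There were 1635 barcode-high and 2327 barcode-zero cells, together 3962 of 5092 L6-Syt6 neurons and of 9368 excitatory neurons in the whole series. The 1130 cells with 1 to 4 barcode UMIs entered neither group, and 201 cells with 4 UMIs lay just outside the threshold and 192 with 5 just inside it. The barcode count chose the groups and is therefore only described: barcode-high cells held a median of 12 barcode UMIs and at most 247.

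The mice were male C57BL/6, labelled with an age of 8 weeks, which is their age at injection, weeks before the tissue was taken, and received rAAV2-retro viruses in 5 targets of the prefrontal cortex on one side of the brain. Each virus carried EGFP under a CAG promoter followed by its own short barcode, and the targets were the lateral hypothalamus (LH), agranular insular cortex (AI), basolateral amygdala (BLA), mediodorsal thalamus (MD) and dorsomedial striatum (DMS). All cells of both groups came from these injected mice, so that a barcode-zero cell was a neuron without detected barcode in an infected brain and not a cell from an uninjected animal. Slices of prelimbic and infralimbic cortex were kept with the glutamate receptor blockers CNQX and D-AP5 and were digested with papain before 10x Genomics libraries were made. There were 3 unsorted libraries from 1 mouse each and 1 library of cells from 3 other mice, pooled and sorted for EGFP. Barcode-high cells numbered 431, 387 and 376 among unsorted and 441 among sorted cells, and barcode-zero cells 749, 766, 718 and 94.

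Layer 6 corticothalamic neurons send their axons to the thalamus and are known by Syt6, Foxp2 and Tle4. Below and among them lie L6b neurons, the remnant of the subplate, which express Ctgf, Cplx3 and Nxph4, and in deep layer 5 lie near-projecting neurons, which express Tshz2 and Htr2c and have mostly local axons. The rAAV2-retro virus enters at axon terminals and is carried back to the cell body. Barcode RNA is therefore taken to mark a neuron whose axon reached an injection site. The paper does not fully exclude uptake by passing fibres. It called barcoded cells from separately amplified barcode libraries, with a UMI threshold for each target, so the groups used here differ from its barcoded cells. Immediate early genes such as Fos, Arc and Npas4 are transcribed within minutes of neuronal activity or of other stimulation, and later response genes such as Bdnf follow them.

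The label held against its markers. Syt6 stood at 151 CPM in L6-Syt6 neurons and at no more than 5.05 CPM in the other subtypes, and Foxp2 (262 CPM), Tle4 (263 CPM), Rprm (1261 CPM) and Hs3st4 (451 CPM) were also highest there, while Sulf1 was higher in L6-Npy (101 against 75.9 CPM) and Fezf2 in L5-Htr2c neurons (259 against 121 CPM). Counts were summed per library and group, which gave 9784805 to 16812022 UMIs for barcode-high cells and 2692397, in the 94 sorted cells, to 16865367 for barcode-zero cells. Summed markers of microglia (1.73 to 19 CPM against 2.60 to 18.8 CPM), oligodendrocytes (30.6 to 51.9 against 31.6 to 57.9 CPM, lower in 4 of 4 libraries) and inhibitory neurons (3.51 to 17.0 against 3.34 to 16.9 CPM) overlapped between barcode-high and barcode-zero sums, and so did those of oligodendrocyte precursors (0.535 to 3.15 against 0.371 to 2.27 CPM), endothelium (3.99 to 10.4 against 4.46 to 8.91 CPM) and neurons in general (9174 to 9661 against 9612 to 10491 CPM, lower in 4 of 4 libraries). Astrocyte markers were higher in barcode-high sums of 4 of 4 libraries (130.1 to 157 against 91.0 to 132 CPM), no marker stood at 0 in all sums, and of the markers of other cells only Rgs5 and Sst were called. Unsorted libraries 1 and 2 shared 3 cell barcodes among L6-Syt6 neurons, unsorted library 2 and the sorted library shared 3, and no other pair shared any.

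Barcode-high cells were also the deeper cells. Median total UMIs were 24582 against 21684, 25368 against 21786 and 25878.5 against 23159 in unsorted libraries 1, 2 and 3, and 38604 against 30096.5 where cells were sorted. The mean difference of these medians was 4426.75 UMIs, higher in 4 of 4 libraries (exact paired permutation test, two-sided, p = 0.13, the smallest that 4 libraries allow). Median genes per cell were higher by 348.5, and the median mitochondrial share was lower by 0.348 percentage points, in 4 of 4 libraries each, with the same p of 0.13 in the exact permutation test. The comparison was therefore repeated in cells matched on total UMIs.

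Between barcode-high and barcode-zero L6-Syt6 neurons, no gene of a corticothalamic list was called. Several genes of an L6b and subplate list were lower in barcode-high cells, and several immediate early genes were higher. Nos1, the neuronal nitric oxide synthase, and Cck, the cholecystokinin precursor, rose, and Tshz2, Cplx3 and Rgs5 fell. In cells matched on total UMIs Tshz2 lost its call (log2 fold change -0.25), while Nos1, Cck, Cplx3 and Rgs5 kept it. Of 13030 genes tested, 227 (1.74%) were called, that is, they passed an adjusted p of 0.05 with a difference of 0.5 or more on the log2 scale in edgeR's quasi-likelihood test with the library as a block. Of these, 109 (0.837%) were higher and 118 (0.906%) lower in barcode-high cells, and 1067 (8.19%) passed the adjusted p at any fold. The median log2 fold change over all genes tested was -0.01. In 178 of the 227 called genes the 4 barcode-high and 4 barcode-zero values did not overlap, against 10.4% of all genes tested, and 216 had the same direction in 4 of 4 libraries. The largest log2 fold change, that of the immunoglobulin gene Igkc (-7.34), came from 1 cell: of 6116 Igkc UMIs in barcode-zero cells of unsorted library 1, 6073 were in that cell, and the gene was called by neither DESeq2 nor the fit to matched cells. With limma on the mean CPM over single cells, which changes both the weight of a cell and the test, 49 genes were called, 16 higher and 33 lower.

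The number of calls leaned on each unsorted library. Left out in turn, unsorted libraries 1, 2 and 3 left 74, 40 and 78 called genes, and leaving out the sorted library left 310. Of 66 called genes named below for their rank or their list, 11 kept the call whichever library was left out: Nos1, Ccdc80, Gm13889 and Gadd45b, which rose, and Tshz2, Luzp2, Rgs5, Lamp5, Pcdh11x, Gucy1a1 and A830009L08Rik, which fell. Gm13889, Luzp2 and Rgs5 kept it in all 19 alternative settings, while 11 of the 66 lost it at each of the 4 omissions.

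Nos1 (chr5:117781032-117958840, mm10) rose in each library. Its CPM in barcode-high cells were 8.65, 10.2, 11.6 and 19.6 (unsorted 1, 2 and 3 and sorted, the order used throughout), and in barcode-zero cells 4.81, 4.43, 4.69 and 9.48. The sorted library was the highest in both groups, and its barcode-zero value overlapped with unsorted barcode-high values. The difference was 2.15-fold, a log2 fold change of 1.11 with SE 0.11 (adjusted p = 0.000727). The Nos1 gene overlaps Gm37028 on the same strand, so that reads there could belong to either. L6-Syt6 neurons as a whole held little Nos1 (9.63 CPM) beside L6-Npy neurons (80.5 CPM) and L2/3-Calb1 neurons (102 CPM).

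Gm13889 (chr2:93955810-93957201), a predicted protein-coding gene that overlaps Gm27027 on the same strand, had the lowest adjusted p of the genes named here. It stood at 71.4, 70.7, 92.1 and 69.7 CPM in barcode-high and 36.1, 35.4, 44.0 and 36.9 CPM in barcode-zero cells, a log2 fold change of 1.00 with SE 0.05 (adjusted p = 1.4e-05). The values fell into separate ranges, with means of 76.0 ± 10.8 and 38.1 ± 3.99 CPM (SD, n = 4 libraries). Ccdc80, which encodes a protein of the extracellular matrix, behaved alike, with 9.23, 9.44, 12.7 and 13.2 CPM against 4.32, 4.78, 5.99 and 6.09 CPM and a log2 fold change of 1.06 with SE 0.10 (adjusted p = 0.000491). Its barcode-high values were all above its barcode-zero values.

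The other genes with the largest increases were weakly expressed. Cd55, an inhibitor of complement, stood at 3.08, 3.04, 2.33 and 2.5 CPM against 1.42, 1.26, 1.3 and 0.677 CPM, a log2 fold change of 1.14 with SE 0.21 (adjusted p = 0.0122), and Ajap1, a protein of adherens junctions, at 3.27, 3.88, 3.6 and 2.44 against 1.42, 1.44, 1.98 and 1.69 CPM, a log2 fold change of 1.10 with SE 0.20 (adjusted p = 0.0114). Neither gene overlapped between the groups. The hyaluronan receptor Cd44 (1.17), the chitinase Chia1 (1.14), the phosphoglycerate mutase Pgam2 (0.97), the acyl-CoA thioesterase Acot1 (0.93, a gene with close paralogs) and the long noncoding RNAs 2610028E06Rik (1.19) and Gm10605 (1.17) were also among the 12 highest log2 fold changes of genes higher in 4 of 4 libraries. Several of these rested on few reads, such as 63 and 37 summed UMIs of Chia1 in barcode-high and barcode-zero cells and 58 and 30 of 2610028E06Rik.

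Among genes with lower expression, Tshz2 (chr2:169633013-170071816), a zinc-finger transcription factor of near-projecting neurons, had one of the largest differences and one of the lowest adjusted p values. It stood at 4.9, 5.56, 2.12 and 5.46 CPM in barcode-high and 15.7, 18.2, 13.4 and 17.3 CPM in barcode-zero cells, 3.60-fold lower with a log2 fold change of -1.85 with SE 0.14 (adjusted p = 0.000209). All 4 barcode-high values lay far under the lowest barcode-zero value.

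Syndig1l, of a family of transmembrane proteins of synapses, was lower, with 0.673, 0.944, 1.38 and 0.988 against 3.58, 3.17, 2.22 and 6.43 CPM and a log2 fold change of -1.89 with SE 0.31 (adjusted p = 0.00798). Rgs5, a regulator of G-protein signalling best known from pericytes, was at 9.71, 7.34, 9.54 and 5.69 against 22, 20.4, 22.7 and 31.5 CPM, a log2 fold change of -1.52 with SE 0.16 (adjusted p = 0.00126). Luzp2, a leucine zipper protein, was at 3.56, 3.04, 3.18 and 1.51 against 8.51, 9.99, 9.44 and 5.75 CPM, a log2 fold change of -1.56 with SE 0.14 (adjusted p = 0.000384). In none of the 3 did the groups overlap, and for Rgs5 and Syndig1l the sorted barcode-zero cells held the highest value of all. Rgs5 made up most of the summed mural markers, which were 6.25 to 11.3 CPM in barcode-high and 24.0 to 35.3 CPM in barcode-zero sums. Among the 7 subtypes both Rgs5 and Luzp2 had their highest level in L5-Htr2c neurons, at 107 CPM for Rgs5 (17.7 CPM in all L6-Syt6 neurons) and 67.9 CPM for Luzp2 (6.80 CPM). Of 5 mural markers 2 could be tested, and the part of mural RNA in the difference was not tested.

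The remaining genes among the 12 lowest were Ddo, the D-aspartate oxidase (-2.31), Gypc, glycophorin C (-1.73), Cyp26b1, which degrades retinoic acid (-1.61), Cplx3 (-1.61), Svil, which binds actin (-1.53), the neurexin ligand Nxph2 (-1.47), and A830009L08Rik (-1.64) and Gm3336 (-1.53). Ddo was counted only 13 and 58 times in all barcode-high and barcode-zero cells.

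**Figure D1:**
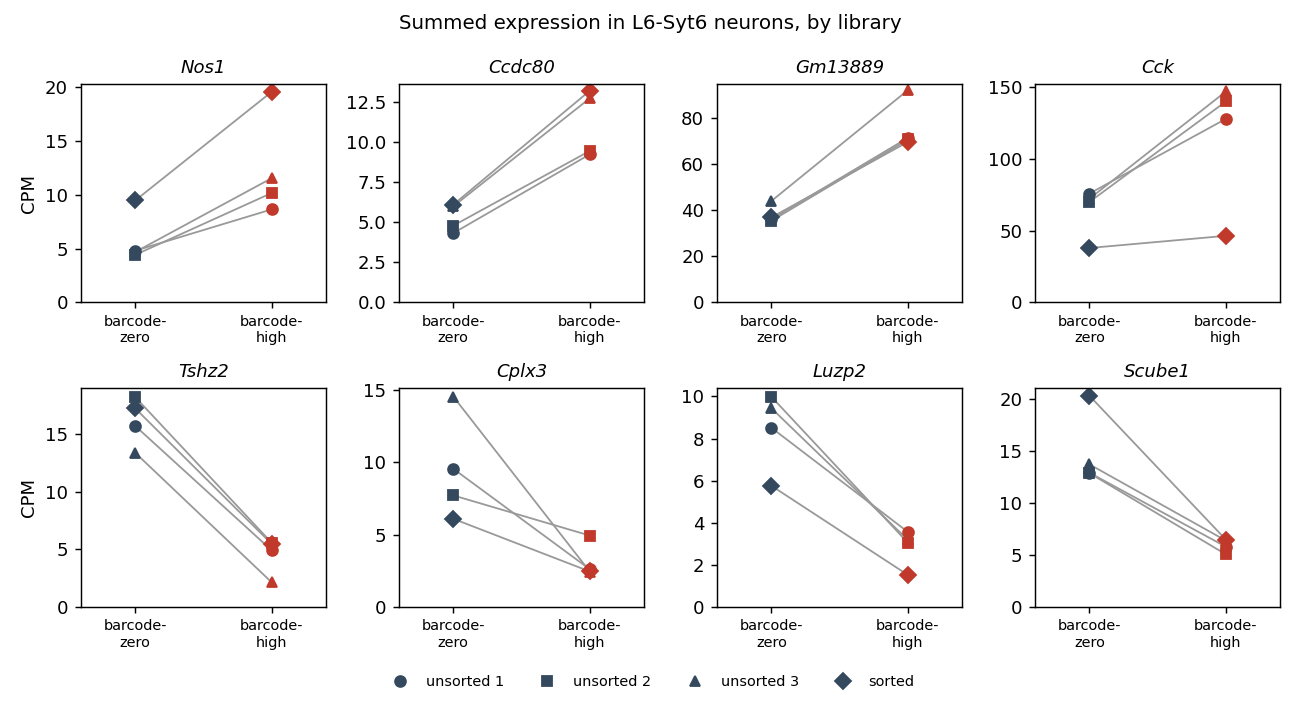
CPM of 8 genes in summed L6-Syt6 neurons of each library (y axis, from 0), with barcode-zero cells on the left and barcode-high cells on the right of each panel. Symbols mark the 3 unsorted libraries and the sorted library, and lines join the sums of 1 library. Nos1, Ccdc80, Gm13889 and Cck go up and Tshz2, Cplx3, Luzp2 and Scube1 go down in 4 of 4 libraries, while the sorted library has a small step for Cck, from 37.9 to 46.4 CPM.

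Higher and lower genes differed in the subtype where they were most abundant. Of 109 higher genes, 48 (44.0%) had their highest level, among the 7 subtypes of the study, in L6-Syt6 neurons themselves, against 21.1% of all genes tested, and 23 (21.1%) in L6-Npy neurons, against 11.8%. Of 118 lower genes, 42 (35.6%) were highest in L5-Htr2c neurons, against 17.8% of all genes tested, and 12 (10.2%) in L6-Syt6 neurons. Subtype levels were unweighted means over the libraries, and the sorted library held only 4 L5-Htr2c neurons. Abundance also differed, with a median log2 CPM of 2.70 over the lower, 4.01 over the higher and 4.45 over all genes. The shares of all genes are therefore not for genes of like abundance. Cells were also left out by their markers, an alternative in part chosen after the data were seen. Of these 42 genes, 32 remained called without cells holding a UMI of Tshz2, 33 without cells holding 2 or more of 4 L6b genes, and 28 without cells holding 2 or more near-projecting genes. Their median log2 fold change went from -0.85 to -0.83, -0.84 and -0.79 in the same order, and of the 48 higher genes highest in L6-Syt6 neurons 38, 38 and 30 remained called.

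No corticothalamic gene reached the fold limit. Of 14 tested, 0 were called in edgeR's test and 0 in DESeq2. An unadjusted p under 0.05 was found for 8, beside 3343 of all 13030 genes tested. Of the 14, 7 lay above and 7 below 0, and their median log2 fold change was 0.03, beside -0.01 over all genes. Syt6 itself stood at 142, 138, 139 and 169 CPM in barcode-high and 137, 128, 131 and 162 CPM in barcode-zero cells, a log2 fold change of 0.08 with SE 0.04 (adjusted p = 0.3). These values overlapped, and so did those of Foxp2 (0.11, adjusted p = 0.172), Hs3st4 (-0.04, adjusted p = 0.605) and the thalamus-projection regulator Tbr1 (-0.05, adjusted p = 0.589). Below the fold limit, 5 of the 14 passed the adjusted p, against 8.19% of all genes at any fold. They were the sulfatase Sulf1 (0.37), the thyroid-hormone-binding Crym (0.42) and Rprm (0.25) on the higher side, and the corepressor Tle4 (-0.30) and Garnl3 (-0.28) on the lower side. Rprm was even across libraries, at 1303, 1297, 1289 and 1294 CPM in barcode-high cells against 1132, 1112, 1112 and 1001 CPM in barcode-zero cells.

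L6b and subplate genes were lower more often than higher. Of 12 tested, 6 were called lower and 1 higher, against 0.906% and 0.837% of all genes tested. The median log2 fold change of the 12 was -0.57, beside -0.01 over all genes. Cplx3 (chr9:57599992-57606281), a complexin of the presynaptic release machinery, was at 2.6, 4.93, 2.44 and 2.44 CPM in barcode-high and 9.56, 7.72, 14.6 and 6.09 CPM in barcode-zero cells, a log2 fold change of -1.61 with SE 0.25 (adjusted p = 0.00656). Unsorted library 2 had the smallest step and unsorted library 3 the largest, and the groups did not overlap. The orexin receptor Hcrtr2 was at 5.77, 2.31, 3.92 and 2.27 against 8.33, 7.42, 6.42 and 14.2 CPM, a log2 fold change of -1.22 with SE 0.28 (adjusted p = 0.0285), also without overlap.

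Svil (-1.53), the zinc transporter Tmem163 (-1.12), the neurexophilin Nxph4 (-0.86) and the potassium channel subunit Kcnab1 (-0.75) were the other 4 that fell, and the phosphatase Inpp4b (0.51) rose. Ctgf, a matrix-associated growth factor and the best known L6b marker, was at 32.1, 35.2, 28.8 and 19.9 against 39.5, 44.9, 47.5 and 16.9 CPM, a log2 fold change of -0.39 with SE 0.10 (adjusted p = 0.0378), under the fold limit and not lower in the sorted library. Nxph3 (-0.20), Drd1 (0.12), Lpar1 (0.28) and Trh (0.41) were not called, and Moxd1 was too low to be tested. Leaving out unsorted library 1, 2 or 3 left 1 of the 6 lower calls each time, and leaving out the sorted library left 6.

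**Figure D2:**
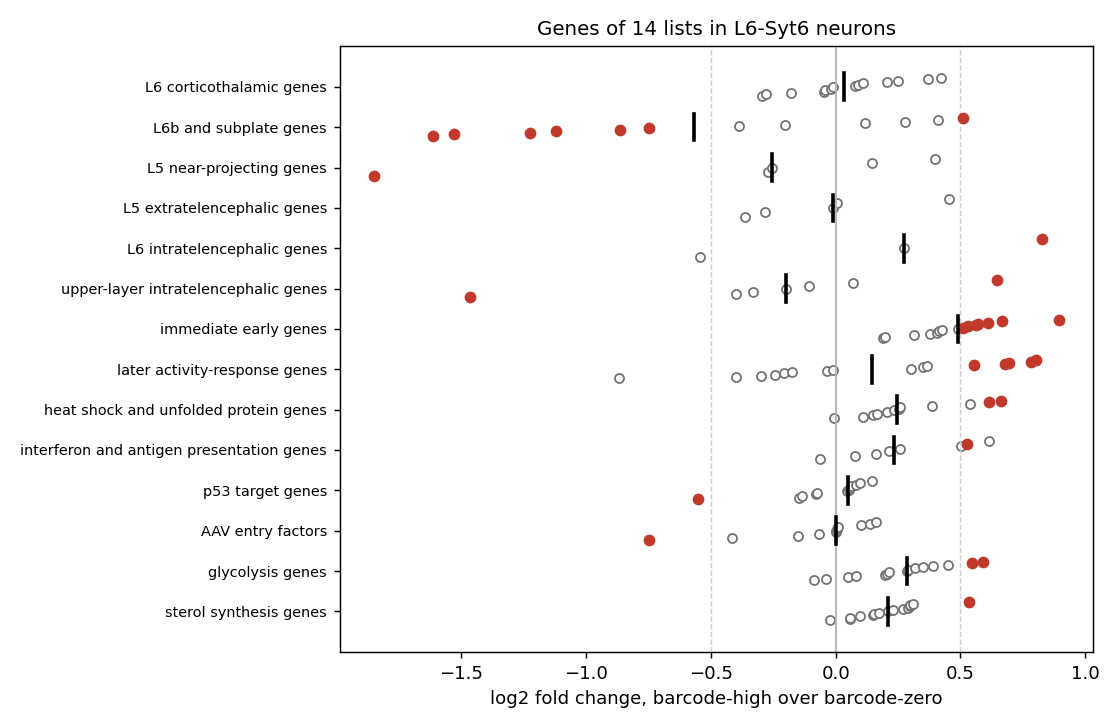
Log2 fold change, barcode-high over barcode-zero (x axis), of the tested genes of 14 lists in summed L6-Syt6 neurons. Each circle is 1 gene, filled where it was called, the bar is the median of the list and dashed lines mark the fold limit of 0.5. L6b genes have a median of -0.57 with 6 filled circles on the lower side, immediate early genes a median of 0.49 with all 15 above 0, and corticothalamic genes a median of 0.03 with none filled.

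In a sum over cells, fewer cells with a gene and less RNA per cell cannot be told apart, so cells with L6b genes were counted as well. Cells with UMIs of 2 or more of Ctgf, Cplx3, Nxph4 and Moxd1 made up 5.07%, 4.18%, 5.15% and 5.32% of barcode-zero cells and 3.02%, 2.33%, 1.60% and 2.27% of barcode-high cells. The mean share was 4.93% ± 0.513 against 2.30% ± 0.580 (SD, n = 4 libraries), lower in barcode-high cells of 4 of 4 libraries although those cells were deeper (exact permutation test, p = 0.13, the smallest possible). Thinned to 10000 UMIs a cell, the shares were 2.49% and 1.03%. In L6-Npy neurons, with median depths of 19031 to 25488 UMIs, 0% to 0.375% of cells met this count. Without these cells, an alternative chosen after the data were seen, 210 genes were called in all. Cplx3 and Nxph4 helped to choose the cells and were then not tested, so the loss of their calls follows from that choice. Among genes that did not choose the cells, Hcrtr2 stayed called at a log2 fold change of -1.22. Svil (-1.21), Tmem163 (-0.84) and Kcnab1 (-0.45) were no longer called.

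Near-projecting genes other than Tshz2 did not follow it. Of 5 tested, Tshz2 alone was called, and Lypd1 (0.15), Htr2c (0.40), the receptor for thyrotropin-releasing hormone Trhr (-0.25) and Vwc2l (-0.27) were not, with a median of -0.25 over the 5. A Tshz2 UMI was present in 8.28%, 8.49%, 7.66% and 5.32% of barcode-zero and in 3.25%, 3.10%, 1.60% and 1.81% of barcode-high cells. That is a mean of 7.44% ± 1.45 against 2.44% ± 0.855 (SD, n = 4 libraries), lower in 4 of 4 (exact permutation test, p = 0.13, the smallest possible), and 5.79% against 1.76% after thinning to 10000 UMIs. The share was 0% to 1.82% in L6-Npy neurons, with median depths of 19031 to 25488 UMIs, and 99.0% to 100% in L5-Htr2c neurons, with median depths of 13886.5 to 19394.5 UMIs. The L5-Htr2c neurons of the sorted library were only 4 cells.

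Few cells carried most of the Tshz2 RNA. In barcode-zero cells, 56 cells with 5 or more Tshz2 UMIs held 72.0% of 828 Tshz2 UMIs, and in barcode-high cells 14 such cells held 82.1% of 218. These cells were shallow, with median totals of 15387 and 19023 UMIs. L6-Syt6 neurons with Tshz2 (282 cells) and those with 2 or more L6b genes (203 cells) shared 16 cells. Without the Tshz2-bearing cells 194 genes were called, 6 L6b genes lower among them.

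**Figure D3:**
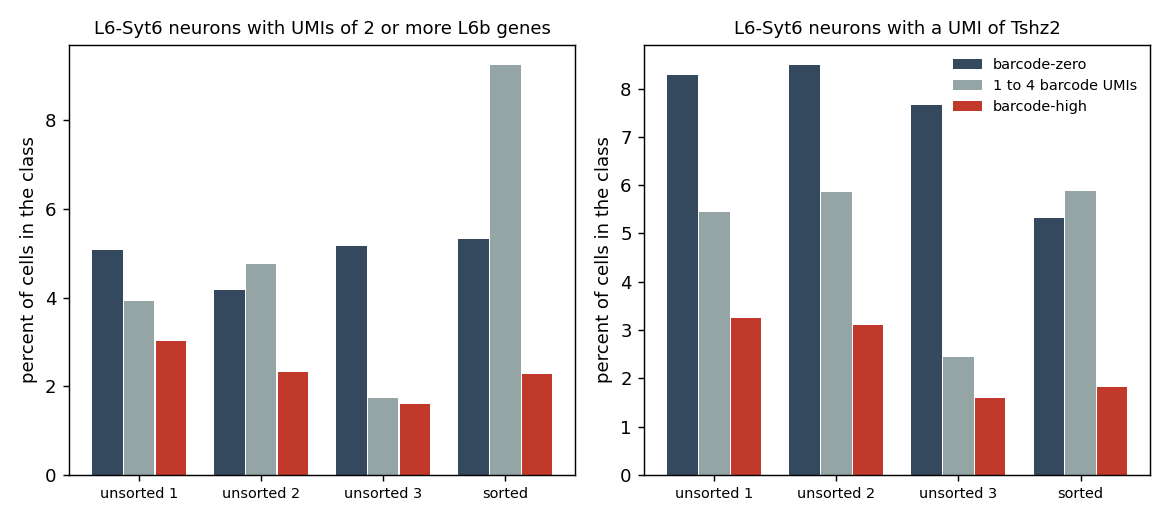
Percent of L6-Syt6 neurons (y axis, from 0) with UMIs of 2 or more of 4 L6b genes (left) and with a Tshz2 UMI (right), by library and barcode class. Each library has values for barcode-zero cells, cells with 1 to 4 barcode UMIs and barcode-high cells. Barcode-high values are the lowest in every library for both measures, at 1.60% to 3.02% and 1.60% to 3.25%, while the middle class varies between libraries. It is above barcode-zero in the sorted library for both measures (9.24% and 5.88%) and in unsorted library 2 for L6b genes (4.76% against 4.18%).

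Immediate early genes, which respond to neuronal activity, lay on the higher side in barcode-high cells. All 15 immediate early genes tested lay above 0. The adjusted p was passed by 13, and 14 did not overlap between the groups, against 8.19% and 10.4% of all genes. Called higher were 7, against 0.837% of all genes: Egr4, Npas4, Fosl2, Btg2, Egr2, Junb and Arc. The median log2 fold change of the 15 was 0.49, beside -0.01 over all genes. The median was 0.33, 0.33 and 0.36 in unsorted libraries 1, 2 and 3 and 0.94 in sorted cells.

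Egr4 (chr6:85511121-85513589), a zinc-finger transcription factor, stood at 454, 462, 522 and 432 CPM in barcode-high and 283, 292, 335 and 126 CPM in barcode-zero cells, a log2 fold change of 0.90 with SE 0.15 (adjusted p = 0.00843). Npas4, an activity-dependent transcription factor of neurons, was at 292, 283, 317 and 347 against 210.1, 204, 216 and 144 CPM, a log2 fold change of 0.67 with SE 0.11 (adjusted p = 0.00798). Fosl2, a partner of Jun in the AP-1 factor, was at 17.8, 21.7, 22 and 21.5 against 13.1, 12.6, 14.3 and 14.6 CPM, a log2 fold change of 0.61 with SE 0.08 (adjusted p = 0.00309). All 3 were higher in each library without overlap, and for Egr4 and Npas4 the sorted barcode-zero cells held by far the lowest value, which Fosl2 did not show.

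Btg2 (0.57), Egr2 (0.56), Junb (0.53) and Arc (0.51), which acts at synapses, followed. The calls depended on single libraries: without unsorted library 1, 2 or 3 there were 2, 0 and 1, without the sorted library 3, and in the mean over single cells (limma) 0. With a threshold of 10 or more barcode UMIs 12 of the 15 were called, and with 20 or more 13.

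The promoters of 2 of these genes are shown because cAMP-response elements, the sites of the activity-regulated factor CREB, were searched for in the 250 bases before each transcription start in RefSeq (GRCm38.p6). Capitals mark TGACG, the core of the element, read on either strand (CGTCA on the printed strand). The windows are chr6:85513590-85513839 for Egr4 and chr1:134079156-134079405 for Btg2, both on the minus strand and printed 5′ to 3′.
Egr4: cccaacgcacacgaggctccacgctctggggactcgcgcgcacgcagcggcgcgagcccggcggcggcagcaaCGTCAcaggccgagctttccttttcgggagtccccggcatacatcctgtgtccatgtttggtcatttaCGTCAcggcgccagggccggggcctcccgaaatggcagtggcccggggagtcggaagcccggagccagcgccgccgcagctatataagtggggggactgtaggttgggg
Btg2: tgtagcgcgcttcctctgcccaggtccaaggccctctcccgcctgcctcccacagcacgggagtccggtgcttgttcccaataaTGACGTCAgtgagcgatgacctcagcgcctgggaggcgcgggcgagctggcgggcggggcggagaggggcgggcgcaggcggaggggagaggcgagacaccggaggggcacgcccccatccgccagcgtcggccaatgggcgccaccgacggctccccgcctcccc
Egr4 had matches at -177 and -109 from the start. Btg2 had overlapping matches at -166 and -163 that together form the full element TGACGTCA. The core was found in 9 of 11 immediate early genes with a window and in 5 of 6 of those called, against 31.2% of tested genes with a window and 17.8% of all 32851 windows, and the full element in 1.55% of windows and in Btg2 alone among these genes. A match describes the letters only.

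Later activity-response genes were divided. Of 16 tested, 5 were called higher, against 0.837% of all genes, 8 lay above and 8 below 0, and the median was 0.15. Gadd45b, a stress- and activity-induced factor of DNA demethylation, stood at 189, 201, 208 and 162 CPM in barcode-high and 119, 118, 127 and 75.8 CPM in barcode-zero cells, a log2 fold change of 0.78 with SE 0.07 (adjusted p = 0.000307). Bdnf, the brain-derived neurotrophic factor, was at 29.9, 30.4, 36.9 and 27.8 against 16.3, 19.9, 21.1 and 26.1 CPM, a log2 fold change of 0.68 with SE 0.10 (adjusted p = 0.00499). Gadd45b and Bdnf did not overlap between the groups, and the step of Bdnf in the sorted library was small. The phosphatase Dusp1 (0.69), the nuclear receptor Nr4a2 (0.55) and the cyclooxygenase Ptgs2 (0.80), which was lower in barcode-high cells of the sorted library, completed the 5. Without unsorted library 1, 2 or 3 there were 2, 1 and 2 calls, and without the sorted library 3.

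Neuropeptide genes moved in both directions. Cck was at 128, 139.8, 147 and 46.4 CPM in barcode-high and 75.8, 69.9, 72.2 and 37.9 CPM in barcode-zero cells, 1.81-fold higher with a log2 fold change of 0.85 with SE 0.09 (adjusted p = 0.000727). The unsorted libraries had large and like steps, the sorted library had a small one, and both of its values lay below all unsorted values. Nts, the neurotensin precursor, was at 2.79, 3.04, 4.77 and 2.09 against 11.9, 10.3, 12.4 and 0.677 CPM, a log2 fold change of -1.53 with SE 0.23 (adjusted p = 0.00659), and the sorted library went the other way. Adcyap1, which encodes PACAP (-1.10), and Sst, somatostatin (-0.78, overlapping between groups), were also called lower, and the median of 10 tested peptides was -0.28.

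Nitric oxide signalling had 2 called genes of 9 tested, against 1.74% of all genes: Nos1 and, on the lower side, the soluble guanylate cyclase subunit Gucy1a1. Gucy1a1 was at 5.67, 7.24, 5.62 and 7.55 against 10.6, 11.8, 10.9 and 15.2 CPM, a log2 fold change of -0.88 with SE 0.10 (adjusted p = 0.00178). Its groups did not overlap. Of 63 potassium channel genes 4 were called lower, against 0.906% of all genes. They were Kcnab1 (-0.75), Kcng1 (-0.75), the channel-interacting protein Kcnip4 (-0.68) and the calcium-activated channel Kcnn2 (-0.55), with a family median of -0.07. Among 30 sodium and calcium channel genes only Cacna2d2 (-0.51) was called. Among 22 glutamate receptor, 11 GABA-A receptor, 28 monoamine, acetylcholine, opioid and cannabinoid receptor and 14 synaptotagmin genes, 0 were called by edgeR or by DESeq2. Those with an unadjusted p under 0.05 numbered 7, 2, 6 and 3, beside 3343 of all 13030 genes tested. The medians of these families were -0.10, -0.05, -0.01 and 0.02.

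Adhesion and guidance lists held some called genes, beside 1.74% of all genes called. Of 63 cadherins and protocadherins, Pcdh11x fell, with 11.2, 13.8, 10.7 and 8.89 CPM in barcode-high against 20.2, 20.8, 19.4 and 24.0 CPM in barcode-zero cells and a log2 fold change of -0.87 with SE 0.11 (adjusted p = 0.00299). Its values did not overlap. Cdh24 (-0.62) also fell and Cdh12 (0.52) rose. Of 57 axon guidance genes the ephrin receptor Ephb3 (-1.22) alone was called, near the share of all genes. Markers of other layers moved in both directions. Of 7 genes of upper-layer neurons Rorb (0.65) rose and Lamp5 (-1.46) fell, of 3 genes of layer 6 intratelencephalic neurons Synpr (0.83) rose, and Etv1 (-0.52), a layer 5 marker of the label check, fell. Of 5 genes of layer 5 extratelencephalic neurons 0 were called in edgeR's test or in DESeq2. An unadjusted p under 0.05 was found for 2, beside 3343 of all 13030 genes tested.

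Several stress, viral response and metabolic lists had medians above 0 and some called members, beside 0.837% of all genes called higher. Heat shock and unfolded protein genes had a median of 0.24 over 12, with the chaperones Hspa8 (0.66) and Dnajb1 (0.62) called. Interferon and antigen presentation genes had a median of 0.24 over 8 of 17, of which Ifi27 (0.53) alone was called. Glycolysis genes had a median of 0.29 over 15, with Gapdh (0.59) and Ldhb (0.55) called, sterol synthesis genes 0.21 over 15 with Fdps (0.53), and axon cytoskeleton genes 0.09 over 19 with Tubb2a (0.61). Lists without such a shift were p53 targets (0.05 over 12), of which Phlda3 (-0.55) fell, and entry factors of AAV (0.00 over 11), of which the integrin subunit Itgav (-0.75) fell. Ribosomal protein genes (0.04 over 76), nuclear genes of oxidative phosphorylation (0.13 over 78) and mitochondrially encoded genes (-0.10 over 13, all below 0) had 0 called members in edgeR's test. Members at an unadjusted p under 0.05 numbered 3, 28 and 0, beside 3343 of all 13030 genes tested. DESeq2 called 0, 2 and 0 members of these lists. In unsorted libraries 1, 2 and 3 the median log2 ratios were -0.02, -0.01 and -0.01 for ribosomal protein genes, 0.02 in each for oxidative phosphorylation genes and -0.01, -0.06 and 0.01 for mitochondrially encoded genes, and in the sorted library 0.21, 0.47 and -0.32. The medians of these lists thus rested largely on the sorted library. Glycolysis genes had 0.18, 0.20 and 0.20 in unsorted and 0.51 in sorted cells, above 0 in each library and highest in the sorted one.

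In cells matched on total UMIs, most called genes lost their call. The median log2 fold change over the higher genes was 0.46 in matched and 0.63 in all cells. Over the lower genes it was -0.55 and -0.87. Within each library every barcode-high cell was paired with a barcode-zero cell of like depth where one existed, which gave 427, 386 and 375 pairs in unsorted libraries 1, 2 and 3 and 86 in sorted cells, with median totals of 24529 against 24527 UMIs in unsorted library 1 and of 30710.5 against 30824.5 UMIs in the sorted library. Among 12540 genes tested 39 were called, 26 higher and 13 lower, and 32 of them were among the 227. As many cells taken at even steps without matching gave 159 called genes. Of 221 called genes that could be tested in matched cells 218 had the same sign, beside 10625 of 12538 genes in all, and since the matched cells are among the cells compared before, this is a description only.

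Nos1 stood at 8.8, 10.1, 11.6 and 23.4 CPM in matched barcode-high and 5.85, 5.24, 4.98 and 8.98 CPM in matched barcode-zero cells, a log2 fold change of 0.99 (adjusted p = 0.00338). Cck (1.12, adjusted p = 1.62e-05), Gm13889 (0.77), Ajap1 (1.13), Cd55 (1.15), Fosl2 (0.77), Egr4 (0.67), Bdnf (0.73) and Gadd45b (0.58) also stayed called higher. Cplx3 (-1.55, adjusted p = 0.0326), Syndig1l (-1.71), Rgs5 (-1.14), Luzp2 (-0.91) and Pcdh11x (-0.64) stayed called lower. The medians of the lists were 0.40 for immediate early genes, with 2 called, and -0.40 for L6b genes, with 1 called.

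Tshz2 was not called after matching. Its CPM were 4.98, 5.58, 2.13 and 32.7 in matched barcode-high and 10.3, 6.08, 4.55 and 17.6 in matched barcode-zero cells, a log2 fold change of -0.25 with SE 0.25 (adjusted p = 0.699). It was still lower in the 3 unsorted libraries, where barcode-zero values had come down, and higher in the sorted library. Nts (-0.08, adjusted p = 0.932), Etv1 (-0.11, adjusted p = 0.498) and Nxph2 (-0.45, adjusted p = 0.347) also lost the call.

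**Figure D4:**
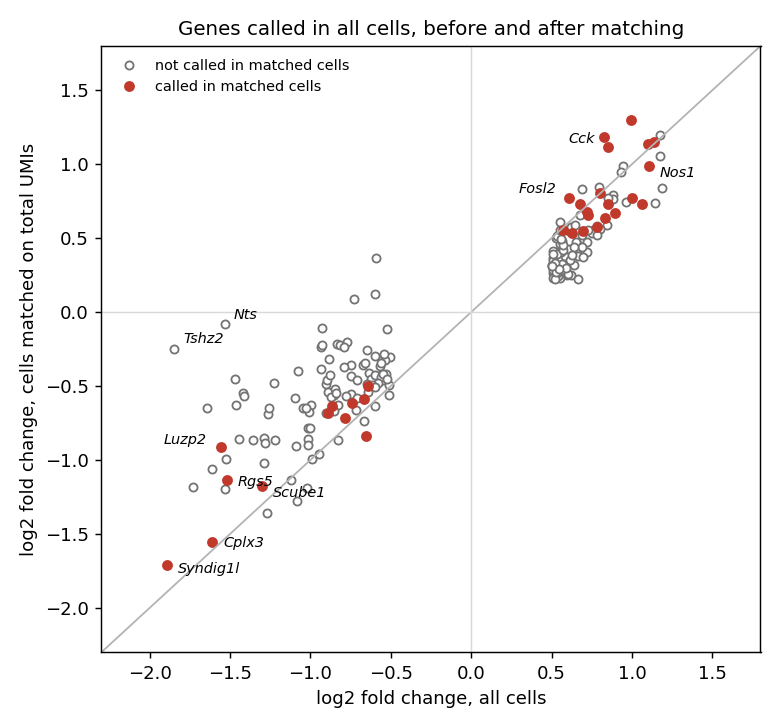
Log2 fold change of the 221 called genes tested in both, in all cells (x axis) and in cells matched on total UMIs (y axis), with filled circles for genes called in matched cells and the diagonal as the line of equal change. 1 gene, Igkc, lies outside the plot. Cplx3, Syndig1l, Nos1 and Cck lie near the diagonal or beyond it, and Tshz2 and Nts lie near 0 on the y axis.

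Some called genes followed the barcode count in steps, and others did not. Median depth also rose over the classes of barcode UMIs, at 22393, 23359.5, 26764 and 28709.5 total UMIs. The part of depth in the trends was not tested. With 4 classes of barcode UMIs (0, 1 to 4, 5 to 19, 20 or more), 740 of 12393 genes (5.97%) had a called linear trend, 461 up and 279 down. These classes hold the same cells as the comparison above, so the trend describes the shape of a change and is no separate evidence for it. Class means were in order for 53 of 109 called higher and 66 of 118 called lower genes, against 1413 upward and 1470 downward of all 12393. Leaving out the sorted library left 408 called trends, and leaving out an unsorted one 729 to 808. Against cells with 1 to 4 barcode UMIs in place of barcode-zero cells, whose median depths were 21411 to 31455 UMIs, 352 genes were called, 10 of the 15 immediate early genes among them.

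Nos1 rose through the classes, with means of 5.84, 7.88, 11.3 and 15.5 CPM, as did Cck, with 63.8, 75.9, 95 and 165 CPM. Ccdc80 had 5.29, 5.71, 9.99 and 13.5 CPM, with its step between the second and the third class. Gadd45b (109.8, 97.1, 153 and 276 CPM) and Egr4 (259, 209, 368 and 697 CPM) were lowest in cells with 1 to 4 barcode UMIs and highest in cells with 20 or more. Tshz2 declined over all classes, with 16.1, 10.8, 5.57 and 2.32 CPM, and Rgs5 (24.1, 22.2, 9.13 and 5.81 CPM) and Luzp2 (8.41, 8.27, 3.03 and 2.27 CPM) mostly between the second and the third. Cplx3, with 9.47, 12.6, 2.6 and 4.87 CPM, followed no order and had no called trend.

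**Figure D5:**
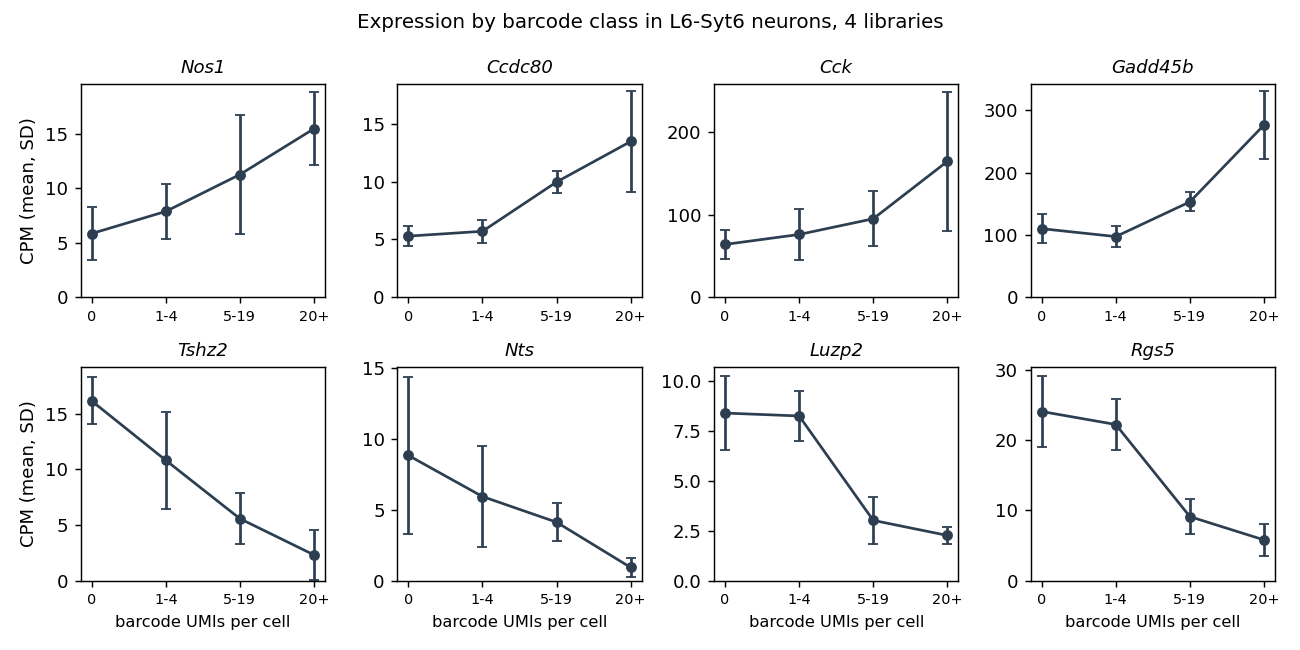
CPM of 8 genes in L6-Syt6 neurons by class of barcode UMIs per cell (x axis), as mean and SD of the 4 libraries (y axis, from 0). Nos1, Ccdc80 and Cck climb to 15.5, 13.5 and 165 CPM in the class of 20 or more, Gadd45b dips before it climbs, and Tshz2, Nts, Luzp2 and Rgs5 go down.

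Some of these differences were not shared with other subtypes, where the same 2 groups of cells were made by the same rule. Barcode-high cells numbered 146, 126, 147 and 116 among L6-Npy neurons and 270, 242, 239 and 207 among L5-S100b neurons. Barcode-zero cells numbered 58, 68, 57 and 49 and, among L5-S100b neurons, 74, 43, 54 and 24, so effects there rested on small sums. Against L6-Npy neurons, the other layer 6 subtype, the barcode effect, that is, the change of barcode-high over barcode-zero cells on the log2 scale, differed for 162 of 11596 genes (1.4%), and of the 193 genes called in L6-Syt6 that were tested in both, for 57. Those genes were chosen for a large effect in the same L6-Syt6 values, so their share is a description and cannot be read against the share of all genes. Effects in single subtypes and in the sorted or unsorted libraries are given as the unweighted mean of the log2 CPM ratios of the libraries, while differences and their tests come from the fit, so that both can differ slightly from each other and from the fold changes above. The median effect in L6-Npy cells was 0.07 over the genes called higher in L6-Syt6 and 0.09 over those called lower, beside 0.01 over all genes. Nnat, a proteolipid, had an effect of 0.66 in L6-Syt6 cells but of -0.24 in L6-Npy cells, a difference of 0.89 (SE 0.07, adjusted p = 1.09e-08). The stem cell factor Kitl (0.48 against -0.51) and the B-cell adaptor Blnk (0.82 against -0.38) differed in the same direction. So did Nos1, with 1.05 against -0.42 and a difference of 1.49 (SE 0.19, adjusted p = 8.98e-05).

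Scube1, a secreted protein with EGF-like domains, went the opposite way, with effects of -1.29 in L6-Syt6 and 1.03 in L6-Npy cells and a difference of -2.33 (SE 0.31, adjusted p = 8.98e-05). In L6-Syt6 it stood at 5.77, 5.03, 6.36 and 6.45 CPM in barcode-high and 12.9, 12.9, 13.7 and 20.3 CPM in barcode-zero cells, without overlap. Trbc2, a T-cell receptor constant gene, was at -0.11 in L6-Syt6 and 1.37 in L6-Npy. For Egr4, at 0.93 and 1.33, and Gm13889, at 0.98 and 0.55, the fitted differences of -0.32 and 0.53 did not pass (adjusted p = 0.83 and 0.657). The number of called differences was 53, 56 and 67 without unsorted libraries 1, 2 and 3, and 245 without the sorted library.

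Against L5-S100b neurons the effect differed for 375 of 12834 genes (2.92%). The cadherin Cdh13 had an effect of 0.16 in L6-Syt6 and of -1.69 in L5-S100b cells, a difference of 1.85 (SE 0.10, adjusted p = 1.70e-12). Pcp4, a calmodulin-binding peptide (-0.25 against 1.12), the glutamate transporter Slc1a2 (-0.40 against 0.54), 1110008P14Rik (-0.29 against 0.48) and Scube1 (-1.28 against 0.66) had effects below 0 in L6-Syt6 and above 0 in L5-S100b cells. Cck differed as well, with 0.77 against 0.10 (adjusted p = 0.00148), and Nos1, with 1.07 against 0.63, did not pass (adjusted p = 0.0655). Without unsorted libraries 1, 2 and 3 and without the sorted library, 199, 193, 298 and 502 differences were called.

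The barcode effect was also compared between the sorted library and the unsorted ones. The sorted side is 1 library with 94 barcode-zero cells, so the spread in this test came from the unsorted libraries alone, its p-values assume that a sorted library varies like them, and sorting, its 3 mice and the library itself cannot be told apart. The interaction of barcode group and sorting was called for 684 of 13030 genes (5.25%), 579 with the more positive effect in the sorted library. Ubb, a polyubiquitin gene, had an effect of 1.13 in the sorted library and of 0.31 on average in the unsorted ones, and Hsp90ab1 (0.94 against 0.24), Hsp90aa1 (0.92 against 0.21), Ppia (0.87 against 0.18) and Stmn1 (0.68 against 0.03) were alike. Egr4 had 1.78 against 0.66, and 9 of the 15 immediate early genes were called, with a median interaction of 0.62. Of 78 nuclear oxidative phosphorylation genes 31 were called (median 0.47) and of 12 heat shock and unfolded protein genes 4 (median 0.16), beside a median of 0.02 over all genes. For Nos1 (1.03 against 1.09), Gm13889 (0.91 against 1.01) and Ccdc80 (1.09 against 1.03) the difference did not pass, with adjusted p of 0.936, 0.78 and 0.961 in edgeR's test of the difference.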

How the data were processed

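The study injected retrograde AAV with expressed barcodes in 5 targets and made 10x Genomics 3′ libraries of the prefrontal cortex. Reads were aligned by the authors with Cell Ranger to mm10 with the barcodes added as genes, cells were filtered with Seurat 3.1.4, and subtypes were clustered with the Leiden algorithm in Scanpy. The deposited matrices hold counts of UMIs for 31053 genes and 1 feature named barcode, taken here as the sum over the 5 viruses, and the deposited annotation gives the 7 subtypes. The authors compared single cells, whereas here the counts of L6-Syt6 cells were summed per library and group, since cells of 1 library are not replicates. The barcode feature was left out of sums, library sizes and tests. No column belonged to other samples. CPM were computed on TMM-scaled library sizes.

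Sums of 2692397 to 16865367 UMIs were fitted with edgeR 4.0.16 (R 4.3.3; TMM, filterByExpr, robust quasi-likelihood, library as block, Benjamini-Hochberg over all genes tested). Genes with an adjusted p under 0.05 that differed by 0.5 or more on the log2 scale were called. SEs were derived from the F statistic. Interactions with sorting and with subtype and a linear trend over 4 barcode classes were fitted in the same way. Precision was limited by the 94 barcode-zero cells of the sorted library. On simulated counts of 12908 genes, the main comparison recovered 90% of changes of 1 and 84% of changes of 0.75 on the log2 scale, with 1.14% false calls. The sorting interaction, on 12915 genes, recovered 59% and 42%, with 7.34% false calls. The interaction with L6-Npy, on 11484 genes, recovered 70% and 55%, with 4.58% false calls. Each unsorted library is 1 mouse and the sorted library a pool of 3 other mice.

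Named genes were the 12 called genes with the highest and the 12 with the lowest log2 fold change among those with 1 direction in 4 of 4 libraries, every called gene of 36 gene lists, all members of the corticothalamic, L6b and near-projecting lists, and the 5 genes with the lowest adjusted p of each interaction. A gene that this rule selects is not reported here. Igkc, the genes with mixed direction and those called in matched cells alone were chosen after their values were seen. The members, lists and tests were chosen with earlier results of these data known. Alternatives were DESeq2 1.42.0, limma 3.58.1 on mean CPM per cell with a pseudocount of 1, RLE size factors, no filter, no block, each library left out, other barcode thresholds, cells of at least 20000 UMIs, cells paired within 0.05 on the log10 scale of total UMIs, and cells with near-projecting genes left out. Leaving out cells with L6b genes or Tshz2 was added after the data were seen. Doublets were not called anew. Gene coordinates were found for 30934 of 31053 identifiers.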

Additional observations from a re-analysis of the deposited data

Results flagged for a closer look

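Within the 4 libraries, 74 sets of values were examined with Dixon's criterion, 71 of them called genes. Genes of the same cells are not independent, so the rate of about 1 in 20 for independent sets is no reference here. In 16 sets 1 sample lay far from the others, and in 13 of the 16 that sample was the sorted library. Its log2 ratios of barcode-high over barcode-zero stood above those of the unsorted libraries for the immediate early genes Egr4 (1.779, the others 0.64 to 0.68), Npas4 (1.271, the others 0.47 to 0.55), Btg2 (1.295, the others 0.31 to 0.40) and Arc (1.14, the others 0.29 to 0.35). The same held for Hspa8 (1.246), Ubb (1.129), Tubb2a (1.143), Fdps (1.097), Gapdh (1.254), Ldhb (1.34) and Ifi27 (1.096). Ubb was named for its difference in the sorted library, so its flag there followed in part from that choice. The depth gap was also wider there, at 8508 UMIs and 556 genes in the difference of medians, against 2720 to 3582 UMIs and 269 to 295.5 genes in the unsorted libraries. The part of depth in these ratios was not tested.

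Tshz2 was lower by more in unsorted library 3 (-2.571) than in the others (-1.69 to -1.63). Inpp4b was higher by more in unsorted library 2 (0.9034, the others 0.28 to 0.38), and Cacna2d2 lower by more there (-0.8124, the others -0.42 to -0.36).

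In the comparison of the sorted library with the unsorted ones 684 genes were called, led by Ubb (difference 0.8189), Hsp90ab1 (0.7015), Stmn1 (0.6529), Hsp90aa1 (0.7115) and Ppia (0.6878). The barcode effect differed between L6-Syt6 and L6-Npy neurons for 162 genes, led by Nnat (0.8949), Kitl (1.029), Trbc2 (-1.588), Blnk (1.256) and Scube1 (-2.33). Between L6-Syt6 and L5-S100b neurons it differed for 375 genes, led by Cdh13 (1.852), Pcp4 (-1.36), Slc1a2 (-0.9418), Scube1 (-1.956) and 1110008P14Rik (-0.7619). These differences were tested as interactions in edgeR. The sorted side is a single library without a spread of its own, so that its p-values rest on the spread of the unsorted libraries.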

How the results depend on the processing

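The 227 called genes became 74 without the library block (71 of them shared), 49 with the mean CPM per cell (limma), 39 in cells matched on total UMIs and 113 in cells of at least 20000 UMIs. A threshold of 1, 10 or 20 barcode UMIs gave 33, 422 and 581 genes, and cells with 1 to 4 barcode UMIs as reference 352. A log2 fold limit of 1 left 55 genes and no limit 1067. Leaving out 1 library gave 40 to 310 genes, 408 to 808 for the trend, 53 to 245 for the difference from L6-Npy and 193 to 502 for that from L5-S100b. DESeq2 called 178 genes (160 shared), RLE size factors 229 and no filter on low counts 211, where the rest of the design was kept. The 1 named called gene whose direction turned was Sst (0.23, adjusted p = 0.576, against cells with 1 to 4 barcode UMIs). Of 66 called genes named by rank or list, 21 kept the call without the block, 47 of 61 in DESeq2 and 17 of 65 in matched cells. The libraries pair both groups by construction, since each was split into barcode-high and barcode-zero cells, and the block is part of the design. Depth limits the 94 sorted barcode-zero cells and genes of few UMIs such as Ddo and Chia1. Barcode RNA was counted in cells of unequal depth, so that a barcode-zero cell may have held barcode RNA below detection, which was not tested.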

Other observations

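Among the 227 called genes, 11 did not have the same direction in 4 of 4 libraries, 6 higher and 5 lower, and in 10 of these the 3 unsorted libraries went one way and the sorted library the other. Beside Nts, Ptgs2 and Phlda3 these were the chemokine-like Fam19a1 (1.60), the Nogo receptor relative Rtn4rl1 (1.27), the complement-related synaptic protein C1ql3 (1.00), Enox2 (0.57) and Gm19410 (0.55) on the higher side, and the phagocytosis bridge Mfge8 (-1.01) and the Wnt and BMP antagonist Sostdc1 (-1.59) on the lower side. The remaining gene was Igkc.

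Matched cells called 7 genes that the whole comparison did not call: the cannabinoid receptor Cnr1 (0.81), the adrenergic receptor Adrb1 (0.58), the AMPA receptor auxiliary protein Shisa6 (-0.63), the synaptic zinc transporter Slc30a3 (2.05), Kazald1 (0.52), Stum (1.39) and Gm47423 (0.50). In all cells their log2 fold changes were 0.39, 0.48, -0.47, 1.06, 0.46, 0.81 and 0.37 in the same order.

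Median log2 ratios over the 109 higher genes were 0.54, 0.58 and 0.60 in unsorted libraries 1, 2 and 3 and 0.97 in sorted cells, and over the 118 lower genes -0.68, -0.85, -0.81 and -0.93. These genes were chosen in the same libraries, so the medians are a description. Cells with 2 or more near-projecting genes made up 16.6%, 15.8%, 18.1% and 24.5% of barcode-zero cells in unsorted libraries 1, 2 and 3 and in sorted cells, and 18.6%, 16.5%, 17.0% and 25.9% of barcode-high cells, higher in 3 of 4 libraries.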
